A study of Mus musculus with 6 samples.

Results

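The Ca2+/calmodulin-dependent kinases were examined in the hippocampus through 10 genes chosen by name: *Camkk1*, *Camkk2*, *Camk4*, *Camk1*, *Camk1d*, *Camk1g*, *Camk2a*, *Camk2b*, *Camk2d*, and *Camk2g*. All 10 were found among the 14477 genes of the deposited RNA-Seq table. The study compared untreated hippocampi of 3 Phf21bΔ4/Δ4 mice (replicates 2, 3, and 6) with those of 3 Phf21b+/+ mice (replicates 5, 7, and 8), with 1 library per mouse. Phf21bΔ4/Δ4 mice carry a germline CRISPR/Cas9 deletion in exon 4 of *Phf21b*, which encodes a PHD finger protein, on a C57BL/6J background, so every cell type carries it. The study used male and female young adult littermates, and the labels give no sex, age, batch, or dissection record for these 6 mice. Values are CPM, the read count of a gene scaled to the effective size of its library as set by edgeR.

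Calmodulin is a small protein that binds Ca2+ entering a neuron and then switches on kinases that carry a calmodulin-binding segment. One branch is a cascade, in which the upstream kinases CaMKK1 and CaMKK2 phosphorylate CaMKI and CaMKIV, and CaMKIV in the nucleus phosphorylates transcription factors such as CREB. The other branch is CaMKII, a multisubunit kinase that phosphorylates itself and is abundant at hippocampal synapses, where it is known for its part in long-term potentiation.

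The reads on listed genes came to between 20495605 and 24881257 per mouse, and each kinase gene had between 275 and 33892 reads in a mouse. The targeted gene, *Phf21b*, was at 2.15, 3.57, and 3.87 CPM in Phf21bΔ4/Δ4 replicates 2, 3, and 6 and at 6.50, 5.23, and 6.47 CPM in Phf21b+/+ replicates 5, 7, and 8. Its log2 fold change was -0.96 (SE 0.26, limma FDR 0.14), so the genotypes did not overlap but its transcript was not absent, and of the 6 fits that left out 1 mouse it passed only in that without Phf21bΔ4/Δ4 replicate 6 (-1.12, FDR 0.0497). Markers of CA1, CA2 and CA3, and the dentate gyrus were detected in all 6 mice. Markers of neighboring tissue were also present, and unevenly. The summed level of 11 medial habenula markers was 47.2 to 91.8 CPM in Phf21bΔ4/Δ4 mice and 285 to 431 CPM in Phf21b+/+ mice, and *Chat*, *Slc18a3*, *Pou4f1*, and *Irx2* had at most 3 reads in each Phf21bΔ4/Δ4 mouse. The 9 choroid plexus markers summed to 15903 CPM in Phf21b+/+ replicate 7 and to between 26.9 and 997 CPM in the other mice.

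Of the 10 kinase genes, 2 were higher in Phf21bΔ4/Δ4 hippocampi and none was lower, where a call needed an FDR below 0.1 together with a change of more than 1.3-fold. These were *Camk4*, the gene for CaMKIV, and *Camk1g*, the gene for the gamma form of CaMKI, each at about the same fold. Across all genes 176 of 14477 passed these thresholds (1.22%), 80 of them higher (0.553%) and 96 lower (0.663%). The genotypes did not overlap for the same 2 members, both with Phf21bΔ4/Δ4 above, as in 15.0% of all genes (31.0% in either direction), and they overlapped for the other 8. The 8 had FDRs between 0.288 and 0.976, and the smallest unadjusted p among them was 0.105 (limma). By sign alone, 7 members had a positive and 3 a negative log2 fold change, with a median of 0.081 over the 10, and the median over all genes was -0.019.

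**Figure D1:**
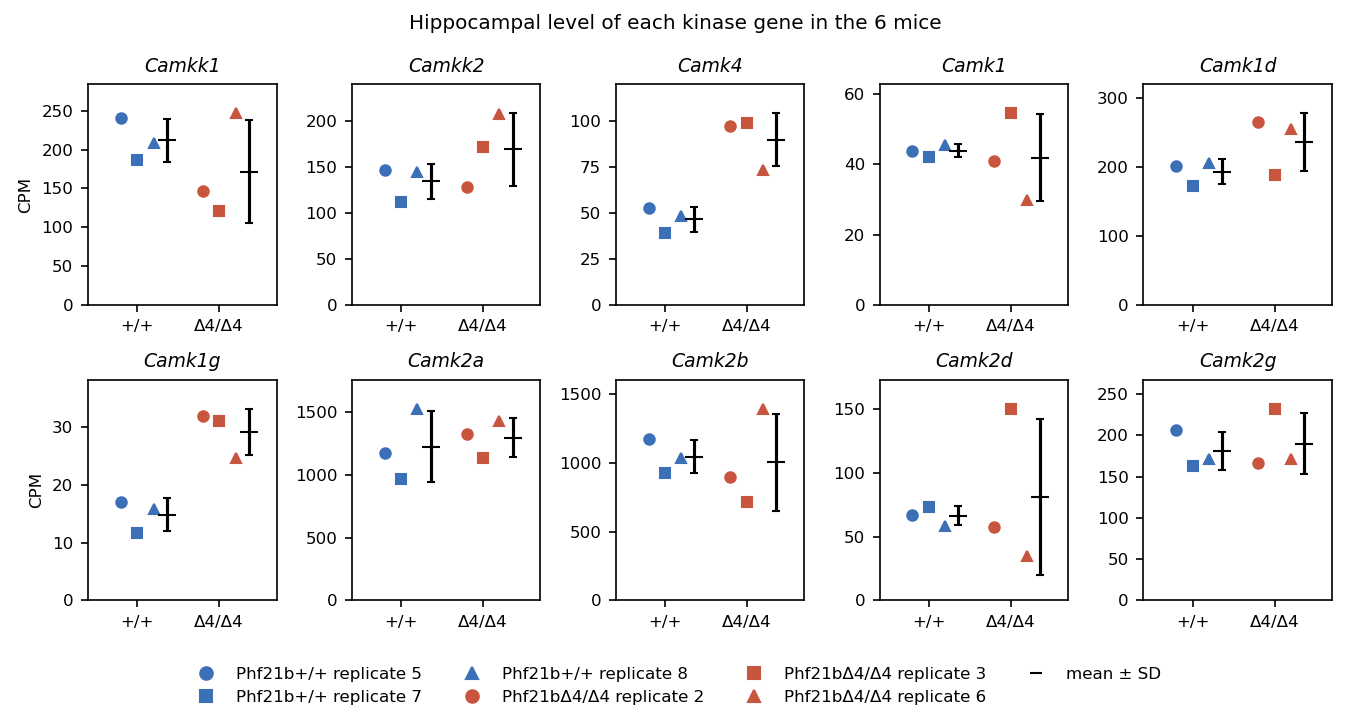
Level of each of the 10 kinase genes (y axis, CPM from 0) in each of the 3 Phf21b+/+ and 3 Phf21bΔ4/Δ4 mice, 1 point per mouse, with the mean and SD of the genotype as a black bar. For *Camk4* and *Camk1g* all Phf21bΔ4/Δ4 points lie above all Phf21b+/+ points, and for *Camk2d* the Phf21bΔ4/Δ4 points run from 34.8 to 149.9 CPM.

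The upstream kinases did not pass the test in either direction. *Camkk1* (chromosome 11 from 73019008 to 73042073, plus strand; all positions are GRCm38) was at 147, 121, and 247 CPM in Phf21bΔ4/Δ4 replicates 2, 3, and 6 and at 241, 186, and 208 CPM in Phf21b+/+ replicates 5, 7, and 8. Phf21bΔ4/Δ4 replicates 2 and 3 were below all Phf21b+/+ mice and replicate 6 was above all of them. The log2 fold change was -0.36 (SE 0.26, 95% interval -0.98 to 0.25, limma FDR 0.400). *Camkk1* passed both thresholds only without Phf21bΔ4/Δ4 replicate 6 (log2 fold change -0.66, FDR 0.0407) and with the mice weighted by their estimated variance (-0.49, FDR 0.0494). The summed level of 8 dentate gyrus markers set the same mouse apart, at 208, 207, and 628 CPM in Phf21bΔ4/Δ4 replicates 2, 3, and 6 and at 790.5, 691, and 689 CPM in Phf21b+/+ replicates 5, 7, and 8. Its part in the *Camkk1* values was not tested.

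*Camkk2* (chromosome 5 from 122731170 to 122779409, minus strand), whose product also activates AMP-activated kinase, was at 128, 171, and 207 CPM in Phf21bΔ4/Δ4 replicates 2, 3, and 6. In Phf21b+/+ replicates 5, 7, and 8 it was at 146, 112, and 145 CPM. Replicates 3 and 6 were above the Phf21b+/+ mice and replicate 2 lay among them. Its log2 fold change was 0.31 (SE 0.19, 95% interval -0.14 to 0.77, limma FDR 0.338).

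*Camk4* (ENSMUSG00000038128.7, chromosome 18 from 32934931 to 33191228, plus strand) encodes CaMKIV, the mainly nuclear kinase that CaMKK activates. It was at 97.2, 99.3, and 73.2 CPM in Phf21bΔ4/Δ4 replicates 2, 3, and 6 and at 52.7, 39.0, and 48.2 CPM in Phf21b+/+ replicates 5, 7, and 8. The lowest Phf21bΔ4/Δ4 mouse, replicate 6, was above the highest Phf21b+/+ mouse, replicate 5. The means were 89.9 ± 14.5 and 46.6 ± 6.99 CPM (SD, n = 3 each), a 1.93-fold difference (95% interval 1.48 to 2.51, log2 fold change 0.95, SE 0.16, FDR 0.0809 by limma with Benjamini-Hochberg adjustment). The gene overlaps the antisense gene *2310026I22Rik*, which is not among the listed genes, and whether reads were counted by strand is not given in the sources used here. *Camk4* is in the study's own list of differentially expressed genes from these mice, so its place among the members is not independent of its change. *Camk1g* is not in that list.

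Of the members, 3 encode forms of CaMKI, a mainly cytoplasmic monomeric kinase. *Camk1g* (ENSMUSG00000016179.11, chromosome 1 from 193346346 to 193370298, minus strand), whose lipid-anchored product is known for its part in dendrite growth, was at 31.8, 31.1, and 24.6 CPM in Phf21bΔ4/Δ4 replicates 2, 3, and 6. In Phf21b+/+ replicates 5, 7, and 8 it was at 17.1, 11.6, and 15.7 CPM. The groups did not overlap, and replicate 6 was again the lowest of the Phf21bΔ4/Δ4 mice and replicate 7 the lowest of the Phf21b+/+ mice. The means were 29.2 ± 3.97 and 14.8 ± 2.85 CPM (SD, n = 3 each), a 1.98-fold difference (95% interval 1.48 to 2.66, log2 fold change 0.99, SE 0.18, limma FDR 0.0910).

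Both calls were close to the FDR threshold and depended on which mice were included. With 1 mouse left out, both genes passed only without Phf21bΔ4/Δ4 replicate 6, with FDRs of 0.0150 for *Camk4* and 0.0250 for *Camk1g*. Without Phf21bΔ4/Δ4 replicate 2 or 3, or Phf21b+/+ replicate 5, 7, or 8, the FDR rose to between 0.113 and 0.281 for *Camk4* and between 0.113 and 0.304 for *Camk1g*. The log2 fold changes stayed between 0.82 and 1.09 for *Camk4* and between 0.82 and 1.11 for *Camk1g* over the 6 omissions. Both genes also missed the threshold when limma used 1 common prior variance (FDR 0.139 and 0.141), and *Camk1g* missed it with limma voom (FDR 0.101). All p-values rest on the spread between these 3 and 3 mice, with each gene's variance moderated by a prior that limma drew from all genes.

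The other CaMKI genes did not pass the test. *Camk1d* (chromosome 2 from 5293457 to 5714515, minus strand) was at 265, 188, and 256 CPM in Phf21bΔ4/Δ4 replicates 2, 3, and 6 and at 201, 172, and 206 CPM in Phf21b+/+ replicates 5, 7, and 8. Replicates 2 and 6 were above the Phf21b+/+ mice and replicate 3 lay among them, with a log2 fold change of 0.28 (SE 0.15, 95% interval -0.076 to 0.63, limma FDR 0.288). *Camk1* (chromosome 6 from 113334124 to 113343984, minus strand) was at 41.1, 54.6, and 29.9 CPM in Phf21bΔ4/Δ4 mice and at 43.9, 42.0, and 45.7 CPM in Phf21b+/+ mice, in the same order of replicates. The Phf21b+/+ mice lay close together and inside the range of the Phf21bΔ4/Δ4 mice. The log2 fold change was -0.11 (SE 0.21, 95% interval -0.60 to 0.38, limma FDR 0.756). The 3′ end of *Camk1* overlaps the listed gene *Ogg1* on the other strand, which spans 113326972 to 113335068, so reads in the overlap may belong to either gene.

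**Figure D2:**
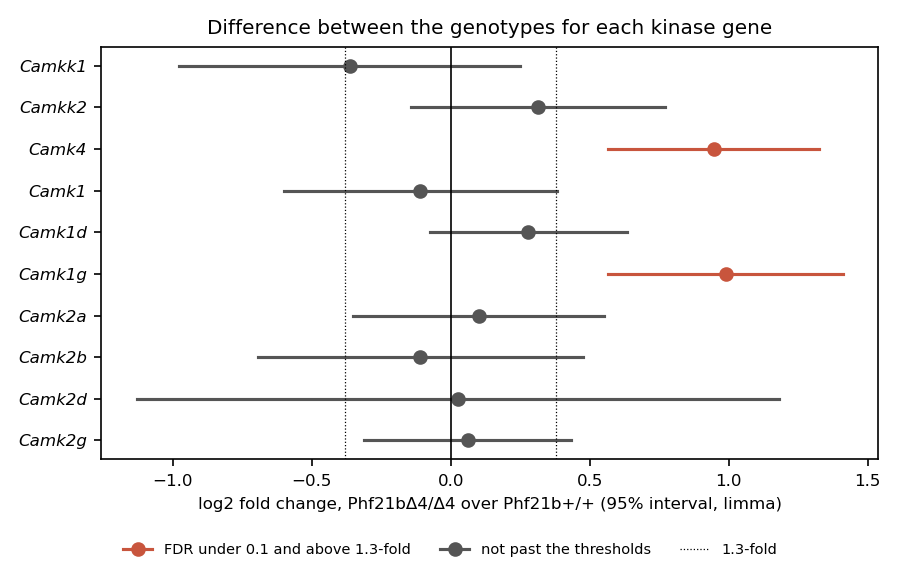
Log2 fold change (x axis, Phf21bΔ4/Δ4 over Phf21b+/+, limma) of each kinase gene as a point with its 95% interval as a line. The intervals of *Camk4* (0.56 to 1.33) and *Camk1g* (0.57 to 1.41) lie above 0, and those of the other 8 genes cross 0.

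Promoter sequence is shown for *Camk1g*, the member that rose and had an entry, and for *Camkk1* and *Camk1*, the 2 members that held a CREB half-site, because CREB is a target of the cascade. RefSeq windows (GRCm38.p6, 250 bases before to 50 after a transcript start) were found for 7 of the 10 members, 8 windows in all. They were searched on both strands for the full cAMP response element TGACGTCA and for the half-site TGACG, which the full element contains. The full element was in 0 of the 8 windows and in 588 of 32851 windows of all genes (1.79%). The half-site was in the windows of *Camkk1* and *Camk1* and in 6837 of all windows (20.8%), and a match is only a description of the letters. The bases of each window that lie upstream of its transcript start and outside the annotated gene are printed 5′ to 3′ on the gene's strand, with the half-site in capitals, for *Camk1g* at chr1:193370299-193370532 (minus strand), *Camkk1* at chr11:73018738-73018987 (plus strand), and *Camk1* at chr6:113343985-113344172 (minus strand).
Camk1g: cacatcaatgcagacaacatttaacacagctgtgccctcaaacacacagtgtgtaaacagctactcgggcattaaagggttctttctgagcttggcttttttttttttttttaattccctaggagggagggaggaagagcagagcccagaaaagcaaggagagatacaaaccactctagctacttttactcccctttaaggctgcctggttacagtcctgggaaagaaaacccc
Camkk1: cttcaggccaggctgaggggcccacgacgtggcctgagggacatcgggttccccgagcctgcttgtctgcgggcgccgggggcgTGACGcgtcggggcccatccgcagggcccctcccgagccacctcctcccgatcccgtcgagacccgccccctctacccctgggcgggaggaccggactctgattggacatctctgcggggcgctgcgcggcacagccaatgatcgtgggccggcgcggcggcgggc
Camk1: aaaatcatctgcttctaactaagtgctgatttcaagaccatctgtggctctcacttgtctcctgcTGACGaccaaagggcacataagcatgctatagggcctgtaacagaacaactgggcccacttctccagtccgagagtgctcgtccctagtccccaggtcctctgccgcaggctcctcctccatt
The *Camk1g* window holds no TGACG on either strand and is 44.9% G and C over the 234 bases shown, and the *Camkk1* window is 74.4% and the *Camk1* window 52.7%.

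CaMKII is built from subunits of 4 genes, and none of them passed the test. *Camk2a* (chromosome 18 from 60925618 to 60988152, plus strand), the main forebrain subunit of excitatory neurons, was at 1326, 1128, and 1430 CPM in Phf21bΔ4/Δ4 replicates 2, 3, and 6 and at 1175, 969, and 1523 CPM in Phf21b+/+ replicates 5, 7, and 8. The Phf21bΔ4/Δ4 mice lay inside the range of the Phf21b+/+ mice. The log2 fold change was 0.10 (SE 0.19, 95% interval -0.35 to 0.55, limma FDR 0.755), and it was negative with quantile normalization (-0.15) and with weighted mice (-0.11).

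*Camk2b* (chromosome 11 from 5969644 to 6066362, minus strand), the subunit that binds actin, was at 900.4, 718, and 1396 CPM in Phf21bΔ4/Δ4 replicates 2, 3, and 6. In Phf21b+/+ replicates 5, 7, and 8 it was at 1173, 930.6, and 1037 CPM. As with *Camkk1*, replicates 2 and 3 were below the Phf21b+/+ mice and replicate 6 was above them. *Camk2b* had a log2 fold change of -0.11 (SE 0.25, 95% interval -0.69 to 0.48, limma FDR 0.796), which was 0.11 without Phf21bΔ4/Δ4 replicate 3.

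*Camk2g* (chromosome 14 from 20734875 to 20794088, minus strand), a broadly expressed subunit, was at 166, 232, and 171 CPM in Phf21bΔ4/Δ4 replicates 2, 3, and 6 and at 207, 164, and 172 CPM in Phf21b+/+ replicates 5, 7, and 8. The highest value was that of Phf21bΔ4/Δ4 replicate 3, and the others were mixed. The log2 fold change was 0.06 (SE 0.16, 95% interval -0.31 to 0.43, limma FDR 0.820), and it was -0.075 with quantile normalization.

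*Camk2d* (chromosome 3 from 126596302 to 126846326, plus strand), the subunit best known from heart muscle, varied most among the Phf21bΔ4/Δ4 mice of the 10 genes. It was at 57.7, 149.9, and 34.8 CPM in Phf21bΔ4/Δ4 replicates 2, 3, and 6 and at 66.7, 73.3, and 58.4 CPM in Phf21b+/+ replicates 5, 7, and 8. Replicate 3 was above every Phf21b+/+ mouse and replicates 2 and 6 were below them, a 4.30-fold range against 1.25-fold in Phf21b+/+ mice. The SD of the log2 values in Phf21bΔ4/Δ4 mice was 1.07, above that of 97.5% of all genes. The log2 fold change was 0.03 (SE 0.49, 95% interval -1.13 to 1.18, limma FDR 0.976), so a difference of 2-fold in either direction was not excluded. It was -0.55 without Phf21bΔ4/Δ4 replicate 3 and 0.50 without replicate 6. The summed level of 9 CA2 and CA3 markers also set replicate 3 apart, at 280.5 CPM against 546 and 663 CPM in the other Phf21bΔ4/Δ4 mice and 523 to 594 CPM in Phf21b+/+ mice, and its part in the *Camk2d* value was not tested.

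The wider spread of the Phf21bΔ4/Δ4 mice was shared by 8 of the 10 members, as it was by 62.7% of all genes. Between the lowest and the highest Phf21bΔ4/Δ4 mouse, *Camkk1* differed by 2.03-fold, *Camk2b* by 1.94-fold, and *Camk1* by 1.83-fold, against 1.29-, 1.26-, and 1.09-fold in Phf21b+/+ mice. The median SD of log2 values over all genes was 0.175 in Phf21bΔ4/Δ4 and 0.132 in Phf21b+/+ mice.

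Levels of different genes were compared per kilobase of annotated exon. In Phf21b+/+ mice the order ran from *Camk2a* (164 ± 37.5 CPM per kb, mean ± SD, n = 3) through *Camk2b* (115 ± 13.3) and *Camkk1* (56.8 ± 7.37) to *Camk2g* (28.2 ± 3.62) and *Camk1d* (26.0 ± 2.45). Below these stood *Camk4* (14.3 ± 2.15 CPM per kb), *Camkk2* (12.3 ± 1.76), *Camk1* (7.34 ± 0.308), *Camk1g* (5.37 ± 1.03), and *Camk2d* (2.94 ± 0.332). The only neighbors whose ranges over the 3 mice overlapped were *Camk2g* with *Camk1d* and *Camk4* with *Camkk2*. In Phf21bΔ4/Δ4 mice *Camk4* averaged 27.6 CPM per kb and *Camk1g* 10.6 CPM per kb, and *Camk1g* then stood above *Camk1* (7.01 CPM per kb). The order depends on the length used. Per kilobase of the longest transcript, *Camk2b* (253.7 CPM per kb) was level with *Camk2a* (246.0), and *Camk4* (17.2) fell below *Camkk2* (27.6) and *Camk1* (18.3).

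*Camk2a* and *Camk2b* together held 63.8% to 73.0% of the summed CPM of the 10 genes in Phf21bΔ4/Δ4 mice and 70.4% to 74.0% in Phf21b+/+ mice. Within CaMKII, *Camk2a* made up 58.3%, 55.4%, and 51.4% of the summed CPM per kb in Phf21bΔ4/Δ4 replicates 2, 3, and 6 and 49.0%, 49.8%, and 58.8% in Phf21b+/+ replicates 5, 7, and 8. Both genotypes thus held mice with a *Camk2a* share near 50% and mice near 58%. *Camk2b* made up 28.8% to 41.0% in Phf21bΔ4/Δ4 and 32.7% to 40.0% in Phf21b+/+ mice. *Camk2d* stayed the smallest, at 0.416% to 2.44% and 0.748% to 1.25%, and *Camk2g* held 7.17% to 13.3% and 7.73% to 10.1%. The genotypes overlapped in the share of each subunit, and no test was made on the shares.

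**Figure D3:**
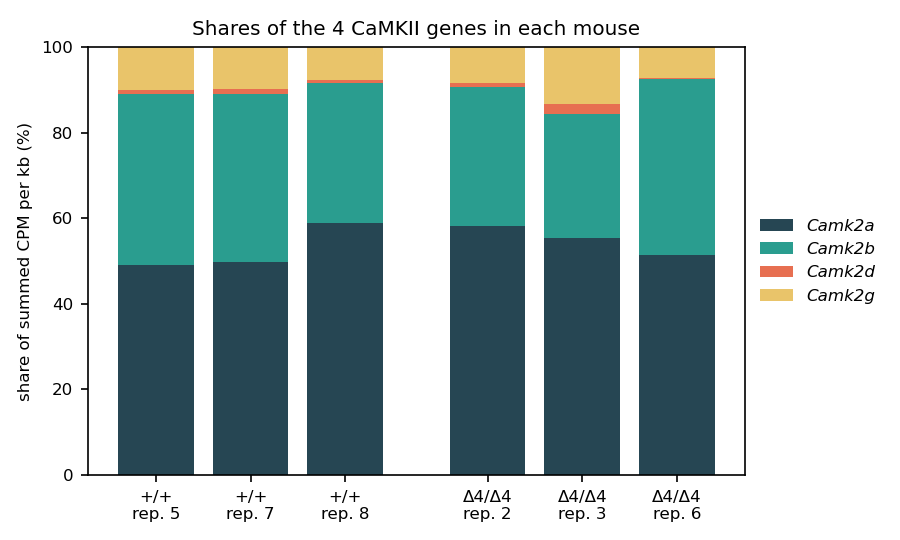
Share of each CaMKII gene (y axis, percent of their summed CPM per kb of exon) in each of the 6 mice, as stacked bars. *Camk2a* and *Camk2b* fill most of every bar, and the *Camk2d* segment is widest in Phf21bΔ4/Δ4 replicate 3 (2.44%).

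The profiles of *Camk4* and *Camk1g* over the 6 mice were close to each other, with a root mean square difference of 0.0562 after each gene's log2 values were centred on their mean. The 3 genes nearest to *Camk4* by this measure were *St8sia5*, a sialyltransferase gene (0.0455), *Ahr*, the aryl hydrocarbon receptor gene (0.0471), and *Camk1g*. Nearest to *Camk1g* were *St8sia5* (0.0433), *Npas1*, a transcription factor gene (0.0498), and *Camk4*. Their log2 fold changes were 0.92 for *St8sia5*, 0.93 for *Ahr*, and 0.91 for *Npas1*. Among the other members, *Camk2b* and *Camkk1* had the smallest difference (0.132), and *Camkk1* and *Camk2d* had the largest of any pair of the 10 (0.939). These distances are over 6 mice of 2 genotypes and carry no test.

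Marker lists of regions and cell types moved with the genotype as well. Bulk RNA cannot tell fewer cells of a type from less RNA per cell. It also cannot tell either from a different extent of dissection, for which the labels give no record. The 9 CA1 markers summed to 1171, 1214, and 1057 CPM in Phf21bΔ4/Δ4 replicates 2, 3, and 6 and to 446, 432, and 479 CPM in Phf21b+/+ replicates 5, 7, and 8, with 3 of 9 higher past both thresholds and none lower. The 8 GABAergic interneuron markers summed to 698 to 849 CPM in Phf21bΔ4/Δ4 and 475 to 541 CPM in Phf21b+/+ mice, with 1 of 8 higher past both thresholds. All 8 had positive log2 fold changes, and 7 of the 8 had an unadjusted p under 0.05 and no overlap between the genotypes. Over all genes, 0.553% were higher and 0.663% lower past both thresholds. Of the 14477 genes, 3421 had an unadjusted p under 0.05, and in 15.0% all Phf21bΔ4/Δ4 mice were above all Phf21b+/+ mice. The CA1 and GABAergic sums both had the same direction as *Camk4* and *Camk1g*, with no overlap between the genotypes. The sums of the excitatory neuron and endothelial markers given below were also higher without overlap. For excitatory neurons the gap was narrow, at 1707 CPM in the lowest Phf21bΔ4/Δ4 mouse against 1700.4 CPM in the highest Phf21b+/+ mouse. Lower past both thresholds were 10 of 11 medial habenula markers, 3 of 8 thalamus markers (summed level 127 to 229 against 430.0 to 663 CPM), and 1 of 8 dentate gyrus markers. Log2 fold changes were negative for all 8 dentate gyrus markers, with 7 of the 8 at an unadjusted p under 0.05, and for all 8 thalamus markers, with 5 of the 8. A single gene was lower among the 9 choroid plexus markers and among the 6 astrocyte markers, and the summed levels of both lists overlapped between the genotypes. The called CA1, GABAergic, dentate gyrus, and astrocyte genes, and most called habenula genes, are in the study's own list of differentially expressed genes. That list came from these mice, so these counts are not independent of the changes. The part of these marker lists in the 2 kinase changes was not tested.

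For the remaining lists no gene passed both thresholds by limma or by limma voom. Excitatory neuron markers of the forebrain summed to 1707 to 1979 CPM in Phf21bΔ4/Δ4 and 1293 to 1700.4 CPM in Phf21b+/+ mice, with 1 of 6 at an unadjusted p under 0.05. Of these 6, 4 had positive and 2 negative log2 fold changes. For 2 of the 6, all Phf21bΔ4/Δ4 mice were above all Phf21b+/+ mice, against 15.0% of all genes. The CA2 and CA3 list had 1 of 9 genes at an unadjusted p under 0.05, oligodendrocytes 0 of 7, microglia 1 of 6, and endothelial cells 2 of 6. Over all genes, 3421 of 14477 had such a p. Astrocyte markers summed to 2596 to 2943 CPM and 2697 to 3019 CPM, oligodendrocyte markers to 5526 to 8542 CPM and 6754 to 9490 CPM, microglial markers to 308 to 336 CPM and 296 to 325 CPM, and endothelial markers to 111 to 145 CPM and 80.7 to 105 CPM, in Phf21bΔ4/Δ4 and Phf21b+/+ mice.

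**Figure D4:**
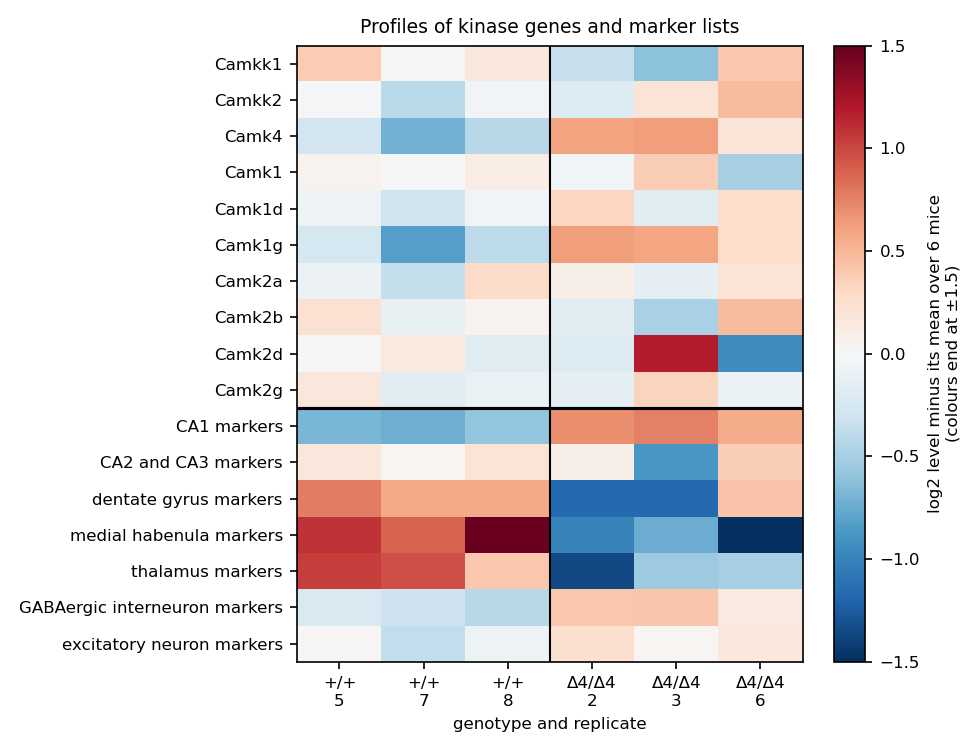
Log2 level of each kinase gene and summed level of each marker list (rows) in each mouse (columns), as the difference from its own mean over the 6 mice (color, ending at 1.5 in either direction). *Camk4* and *Camk1g* are red in all 3 Phf21bΔ4/Δ4 mice, as are the CA1 and GABAergic interneuron lists, and of the Phf21bΔ4/Δ4 mice only replicate 6 is red for *Camkk1* and *Camk2b*.

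The other genes of the pathway were read from 5 lists. Among 8 genes of calmodulin and small calmodulin-binding proteins, 0 passed both thresholds by limma or voom. An unadjusted limma p under 0.05 was found for 3, all lower in Phf21bΔ4/Δ4 mice, against 3421 of the 14477 genes. The median log2 fold change was 0.05. The smallest p was that of *Pcp4*, whose product speeds Ca2+ exchange of calmodulin. *Pcp4* was at 27.7, 47.0, and 41.7 CPM in Phf21bΔ4/Δ4 replicates 2, 3, and 6 and at 73.0, 89.2, and 73.8 CPM in Phf21b+/+ replicates 5, 7, and 8. The genotypes did not overlap, and the log2 fold change was -1.05 (SE 0.20, limma FDR 0.107).

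Of 21 CaM kinase relatives, inhibitors, and phosphatases, 2 rose and 0 fell, against 0.553% of all genes higher and 0.663% lower. The median log2 fold change was 0.03. The count was 1 with limma voom, robust variances, or centring and 0 with quantile normalization or 1 common prior variance. *Ppm1e* encodes a phosphatase that removes the activating phosphate from CaM kinases. Like *Camk4*, it is in the study's own list of differentially expressed genes from these mice. It was at 629, 502, and 573 CPM in Phf21bΔ4/Δ4 replicates 2, 3, and 6 and at 364, 333, and 363 CPM in Phf21b+/+ replicates 5, 7, and 8. No Phf21bΔ4/Δ4 mouse overlapped the Phf21b+/+ mice (log2 fold change 0.68, SE 0.11, limma FDR 0.0724). *Camkv*, whose product resembles the kinases but is a pseudokinase, was at 860.4, 714, and 763 CPM against 561, 466, and 501 CPM, also without overlap (0.61, SE 0.11, limma FDR 0.0992). Unlike *Ppm1e*, *Camkv* is not in the study's list. *Ppm1e* lost its call without Phf21bΔ4/Δ4 replicate 2 or Phf21b+/+ replicate 5, 7, or 8 (FDR 0.118 to 0.279), and *Camkv* kept it only without Phf21bΔ4/Δ4 replicate 6 (FDR 0.0389, otherwise 0.117 to 0.338). The CaMKII inhibitor gene *Camk2n1* had a log2 fold change of -0.25 (limma FDR 0.312) and was picked here for its role.

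Of 17 synaptic substrates and partners, 0 passed both thresholds by limma or voom. Log2 fold changes were positive for 16 of the 17, with a median of 0.35. For 10, all Phf21bΔ4/Δ4 mice were above all Phf21b+/+ mice, against 15.0% of all genes. An unadjusted limma p under 0.05 was found for 8, with 7 higher and 1 lower, against 3421 of the 14477 genes. The smallest p was that of *Grin2b*, an NMDA receptor subunit gene whose product binds CaMKII. It was at 1282, 1383, and 1036 CPM in Phf21bΔ4/Δ4 replicates 2, 3, and 6 and at 665, 496, and 735 CPM in Phf21b+/+ replicates 5, 7, and 8. The groups did not overlap, and the log2 fold change of 0.97 (SE 0.18, limma FDR 0.1003) fell just outside the threshold.

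Of 19 listed transcription factors and signaling targets, 0 passed both thresholds by limma or voom. An unadjusted limma p under 0.05 was found for 2, against 3421 of the 14477 genes, and the median log2 fold change was 0.11. *Hdac9*, a class IIa histone deacetylase gene, had the smallest p of these (log2 fold change 0.31, SE 0.11, limma FDR 0.172). *Creb1*, the gene for CREB itself, had a log2 fold change of -0.06 (limma FDR 0.559). Of 8 activity-regulated genes, 1 rose, against 0.553% of all genes. This gene, *Nr4a1*, is also in the study's own list of differentially expressed genes from these mice. *Nr4a1*, an immediate early transcription factor gene, was at 24.2, 23.4, and 25.3 CPM in Phf21bΔ4/Δ4 replicates 2, 3, and 6 and at 13.9, 15.1, and 14.2 CPM in Phf21b+/+ replicates 5, 7, and 8. Both groups were tight and apart (log2 fold change 0.76, SE 0.087, limma FDR 0.0463), and the median over the 8 genes was 0.23. *Nr4a1* lost its call without Phf21bΔ4/Δ4 replicate 2 or Phf21b+/+ replicate 5, 7, or 8 (FDR 0.113 to 0.191). RNA levels do not measure kinase activity or phosphorylation.

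**Figure D5:**
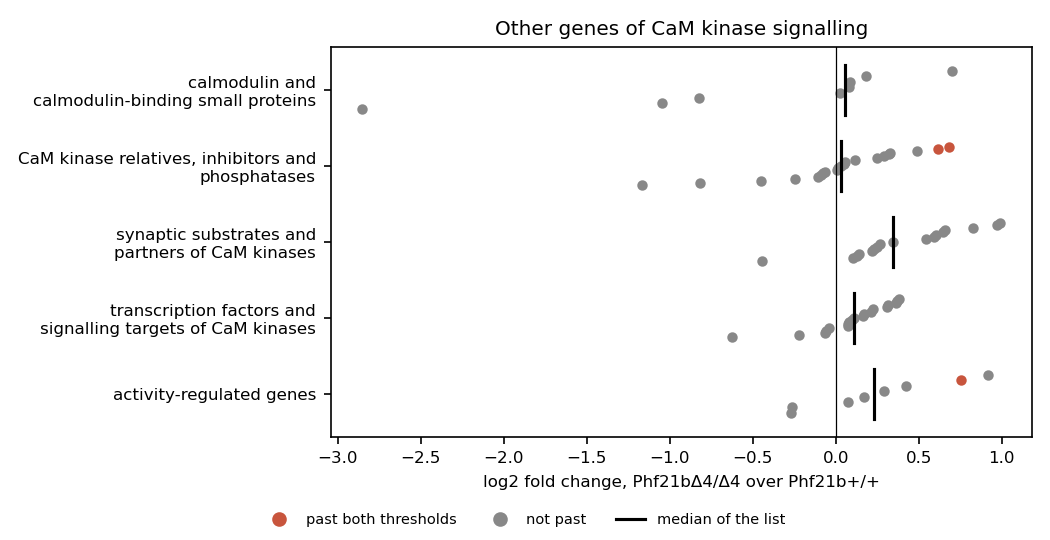
Log2 fold change (x axis, Phf21bΔ4/Δ4 over Phf21b+/+, limma) of each listed gene of the 5 pathway lists (rows), 1 point per gene, with the median of each list as a black bar. The 3 red points past both thresholds are *Ppm1e*, *Camkv*, and *Nr4a1*, and 16 of the 17 synaptic substrates lie above 0.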

How the data were processed

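Hippocampal RNA of 3 Phf21bΔ4/Δ4 and 3 Phf21b+/+ mice was sequenced as 1 library per mouse after ribosomal RNA removal. The authors trimmed reads with Trimmomatic 0.39, aligned them to GRCm38 with STAR 2.7.3a, counted them over GENCODE genes with featureCounts (Subread 1.6.4), dropped genes that did not reach a CPM of 1 in 2 or more samples, and scaled with edgeR. What the authors deposited is a table of log2 CPM for 14477 genes. Limma was the main test here, and edgeR's count test was not run. The prior count and the strandedness of counting are not given in the sources used here. Values were whole reads within 0.1 in 100.0% of cases with a mean prior of 0.1 reads, and CPM, depth, and voom came from these reads. A count of 3 reads was 0.127 to 0.143 CPM.

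The deposited log2 CPM of both genotypes entered limma 3.58.1 in R 4.3.3 (lmFit, eBayes with trend, no covariate), with p-values adjusted over all genes by Benjamini-Hochberg, and genes were called where the FDR was below 0.1 and the change more than 1.3-fold. The script was tested on simulated data. The 10 members and all lists were chosen with earlier results of these data known. Besides the members and *Phf21b*, the text names the genes of each pathway list past both thresholds, or else the one with the smallest p, the 3 nearest profiles of each changed member, and marker genes near 0. *Camk2n1* and *Creb1* were added for their roles after their values were seen, and 1 item is not reported here. *Calm4*, *Calm5*, *Calml3*, and *Mef2b* were in the planned lists but not among the genes of the deposited table, so they were not analysed. Lengths and positions came from a GENCODE annotation of GRCm38 of another release than the authors used, and promoters from RefSeq. How reads shared by CaMKII paralogs were assigned is not given in the sources used here. Alternatives were other prior variances, mouse weights, log2(CPM + 1), only genes whose log2 CPM averaged 1 or more, quantile and median scaling, voom, an FDR under 0.05, no fold threshold or one above 2, the longest transcript as length, and leaving out each mouse. Python 3.11.15 with pandas 2.3.3 and matplotlib 3.10.9 served for tables and plots.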

Additional observations from a re-analysis of the deposited data

How the results depend on the processing

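No paired analysis was made, because the labels give no litter or other link between mice of the genotypes. Over all genes, 176 calls (45.5% higher) became 75 with the same prior variance for all genes (17.3% higher), 3549 with weighted mice, 101 at a mean log2 CPM of at least 1, 25 at an FDR under 0.05, 90 at a fold above 2, and 9 to 2830 with 1 mouse left out. Of the kinase genes, 0 passed with the same prior variance, at an FDR under 0.05, or at a fold above 2, 1 at a mean log2 CPM of at least 1 or with voom, and 0 to 3 with 1 mouse left out. *Camk4* missed the FDR threshold with the same prior variance (0.95, FDR 0.139), and *Camk1g* there (0.99, FDR 0.141), at a mean log2 CPM of at least 1 (0.99, FDR 0.106), and with voom (0.99, FDR 0.101). With 1 mouse left out, log2 fold changes were 0.82 to 1.09 for *Camk4* and 0.82 to 1.11 for *Camk1g*, and signs turned within -0.054 to 0.27 for *Camk2a*, -0.37 to 0.11 for *Camk2b*, -0.55 to 0.50 for *Camk2d*, -0.093 to 0.16 for *Camk2g*, and -0.32 to 0.11 for *Camk1*. Quantile normalization gave -0.15 for *Camk2a*, -0.022 for *Camk2d*, and -0.075 for *Camk2g*, and weighted mice gave -0.11 for *Camk2a*.

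Weighted mice gave 3 calmodulin, 6 relative, 9 synaptic, 2 transcription, and 3 activity-regulated genes. Of the relatives, 0 passed with the same prior variance, quantile normalization, an FDR under 0.05, or a fold above 2, and 1 with robust variances, at a mean log2 CPM of at least 1, with centring, or with voom. Quantile normalization and centring each gave 1 calmodulin and 2 activity-regulated genes. Synaptic genes numbered 1 with log2(CPM + 1) or centring, and activity-regulated genes 0 at a fold above 2. With 1 mouse left out the lists gave 0 to 2, 0 to 5, 0 to 7, 0 to 2, and 0 to 3 genes, in the same order of lists. Per kb of the longest transcript, Phf21b+/+ levels were 17.15 CPM for *Camk4*, 246.0 for *Camk2a*, 253.7 for *Camk2b*, 11.97 for *Camk2d*, 48.83 for *Camk2g*, 27.6 for *Camkk2*, and 18.29 for *Camk1*, and shares were 46% for *Camk2a*, 41.91% for *Camk2b*, and 2.797% for *Camk2d* in Phf21bΔ4/Δ4 and 43.6%, 45.45%, and 2.182% in Phf21b+/+ mice. The causes of these shifts were not tested.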
